A study of Homo sapiens with 19 samples.

Results

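The genes described here encode the pore-forming subunits of voltage-gated sodium and calcium channels, the alpha2delta subunits of calcium channels, and the subunits of potassium channels. They were chosen by gene name alone: a row of the TPM and eCLIP tables belonged to the set when its Ensembl ID had a GENCODE name beginning with CACNA or KCN and a number, or consisting of SCN, a number and A. The rule found 120 genes among the 19942 rows of these tables, 19910 of which matched GENCODE release 44. Of the 120 genes, 119 are annotated as protein-coding in that release. The other one, KCNJ5-AS1, is annotated as a long non-coding RNA antisense to KCNJ5, met the rule by its name only, and is counted with the 120 but is not a channel.

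Voltage-gated sodium channels carry the rising phase of the action potential, voltage-gated calcium channels couple depolarization to transmitter release and gene regulation, and potassium channels repolarize the membrane and set its resting potential. Channels assemble from pore-forming subunits, which select the ion, and from auxiliary subunits, which alter trafficking and gating. Many of these mRNAs are long and come from genes with very long introns, and neuroblastoma cells are known to express several of the families.

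All samples came from SH-SY5Y, a human neuroblastoma cell line of adrenergic character. G3BP1 and G3BP2, RNA-binding proteins that nucleate stress granules (SGs), were each studied by eCLIP, in which RNA crosslinked to an immunoprecipitated protein is sequenced, in untreated cells and in cells treated with sodium arsenite (AS), with 2 libraries in each of these 4 groups. Poly-A RNA-seq was made from cells given siCtrl, siG3BP1 or siG3BP2, and, after AS, from cleared lysate (Total) and from SG cores (SG). Libraries depleted of rRNA were made from untreated cells and after AS, and every RNA-seq condition had 1 library. Each RNA-seq comparison therefore set 1 library against 1 and had no replicate check. SG cores were purified with an antibody against G3BP1, so that what the cores contain is what that antibody retained, and eCLIP was made from the soluble fraction of the lysate. The labels give 500 μM AS for 1 h for the rRNA-depleted library and no dose for its untreated partner. They give 50 mM for 1 h for every eCLIP, knockdown, Total and SG sample, untreated and siCtrl samples included. The labels thus do not settle whether the knockdown cells were stressed. The study's methods give 500 μM AS for 1 h, and their knockdown protocol names no AS. Nothing in the labels says that the duplicate eCLIP libraries came from separate cultures, and the p-values below measure a spread that may be technical.

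G3BP1 mRNA stood at 18.7 TPM in siCtrl and 5.996 TPM in siG3BP1, a ratio of 0.320, and G3BP2 mRNA at 38.1 TPM in siCtrl and 11.4 TPM in siG3BP2, a ratio of 0.299. Of 12 adrenergic neuroblastoma markers, 11 reached 1 TPM in at least 1 poly-A library. So did 6 of 8 mesenchymal or Schwann cell markers, 1 of 6 muscle markers and 1 of 4 blood markers. The summed level of the adrenergic list ran from 3229 TPM in Total to 5439 TPM in SG, and that of the mesenchymal list from 383 to 1116 TPM in the same libraries. TWIST1 made 344 and 855 TPM of the mesenchymal sums, and FN1 made 26.0 and 197 TPM. PRRX1, SOX10 and S100B were under 1 TPM in both libraries. The summed blood list, of which CD68 made 28.7 TPM in SG, went from 0.553 TPM in Total to 28.9 TPM in SG, and its part in the SG values below was not tested. SG values were generally above Total values: over the 10958 genes above 1 TPM in both, the median SG to Total ratio was 2.78.

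Channel mRNAs were detected less widely than other mRNAs. A gene was called detected when it reached 1 TPM in at least 1 of the 5 poly-A libraries, low when it was above 0 but under 1 TPM in all 5, and listed at 0 when all 5 values were 0. By this rule 58 of the 120 genes were detected, which is 48.3%, against 68.6% of all genes. A further 46 were low and 16 were listed at 0 (13.3%, against 12.2% of all genes). The count rested on the SG library: 58 channel genes reached 1 TPM in SG (48.3%, against 67.4% of all genes) and 35 in siCtrl (29.2%, against 60.1%). In siG3BP1 32 did (26.7%, against 59.9%), in siG3BP2 29 (24.2%, against 59.1%) and in Total 22 (18.3%, against 55.5%). Of the 58, 21 reached 1 TPM in SG only (36.2%, against 8.84% of all detected genes). Another 19 reached it in all 5 libraries, a count not made for all genes. Without the SG library 37 of the 120 channel genes were detected, and 12464 of all 19942 genes. TPM keeps no depth, so it cannot be told how many reads lie behind a value of 0.

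Detection differed between families. All 5 KCNQ genes, which encode the M-current and related delayed rectifier subunits, and 7 of 8 KCNH genes, the ether-a-go-go family, were detected. Among the voltage-gated sodium channel alpha subunits 6 of 10 were detected and 4 were low. Among the calcium channel alpha1 subunits 4 of 10 were detected, 5 were low, and CACNA1H, a T-type subunit, was listed at 0. The Kv1 to Kv4 subunits, the classical delayed rectifier and A-type channels, held the most genes listed at 0, namely 6 of 17, and also had 6 detected. Inward rectifiers (KCNJ) had 7 of 16 detected, two-pore leak channels (KCNK) 7 of 15, and potassium channel auxiliary subunits 6 of 16.

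**Figure D1:**
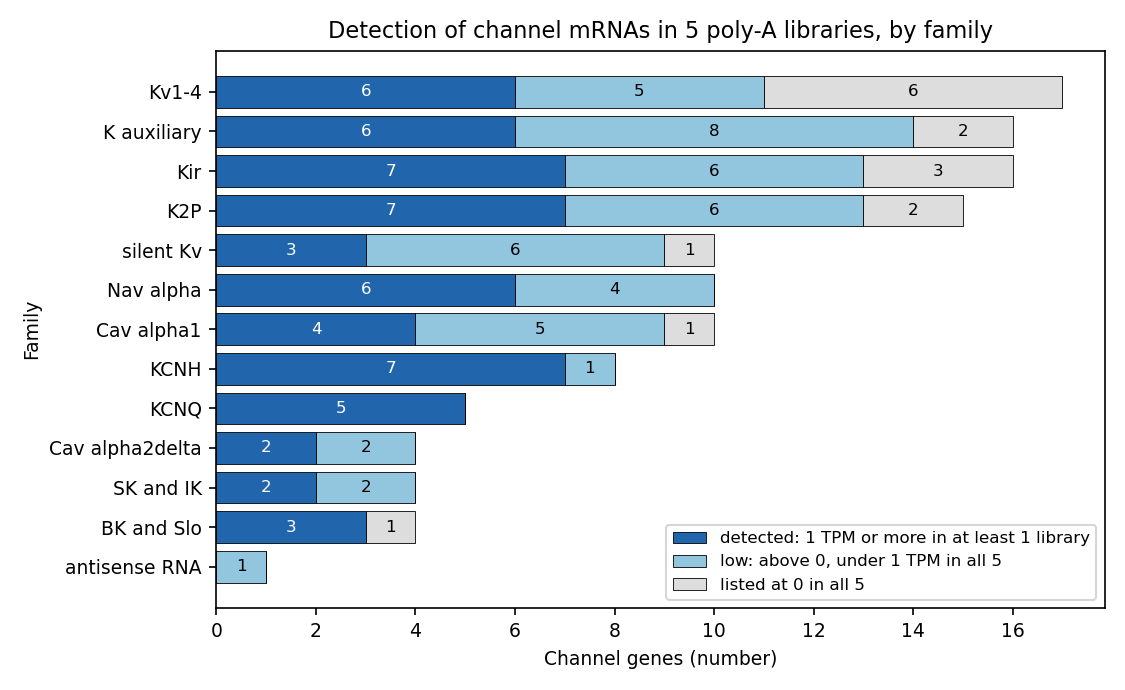
Each bar is a channel family, the horizontal axis gives the number of genes, and the colours give detection over the 5 poly-A libraries (1 TPM or more in at least 1 library, above 0 but under 1 TPM, or 0 in all 5). The KCNQ bar is all detected, with 5 genes, and the Kv1-4 bar has the most genes listed at 0, with 6.

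KCNH2, which encodes the hERG potassium channel of cardiac repolarization, was the most abundant channel mRNA in every poly-A library. Its level was 298 TPM in siCtrl, 256 TPM in siG3BP1, 177 TPM in siG3BP2, 116 TPM in Total and 166 TPM in SG. It made up 49.8% of the summed channel TPM in siCtrl and 16.1% in SG, where the sum itself was 1033 TPM against 598 TPM in siCtrl. Its level in SG lay below that in siCtrl.

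Among the 37 channel genes that reached 1 TPM in a library other than SG, 28 had their highest value in SG (75.7%, against 70% of all genes chosen in that way). CACNA2D2, an alpha2delta subunit that promotes surface expression of calcium channels, gave 42.2, 23.3, 26.9, 17.5 and 145 TPM in siCtrl, siG3BP1, siG3BP2, Total and SG. KCNK1, a weakly conducting two-pore potassium channel, gave 29.4, 24.04, 21.4, 13.8 and 70.8 TPM in the same order. KCNK3, an acid-sensitive two-pore channel, went the other way, with its highest value of 16.6 TPM in siCtrl and 12.1 TPM in SG.

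Among sodium channels, SCN9A, which encodes the peripheral channel Nav1.7, had between 1.03 and 2.05 TPM in the 4 libraries other than SG and 30.7 TPM in SG. Among calcium channels, CACNA1B, the N-type subunit at presynaptic terminals, had 7.64, 5.72, 4.13, 0.994 and 19.0 TPM in siCtrl, siG3BP1, siG3BP2, Total and SG, and CACNA1G, a T-type subunit, 3.98, 5.59, 3.54, 2.13 and 27.6 TPM. In each of these 3 genes SG was the highest library, but they had been chosen by their highest TPM in any library, SG included. KCNMA1, the pore-forming subunit of the large-conductance calcium-activated potassium (BK) channel, was far lower, with 0.0538 TPM in siCtrl, 0.844 TPM in siG3BP1, 0.292 TPM in siG3BP2, 1.21 TPM in Total and 1.32 TPM in SG.

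**Figure D2:**
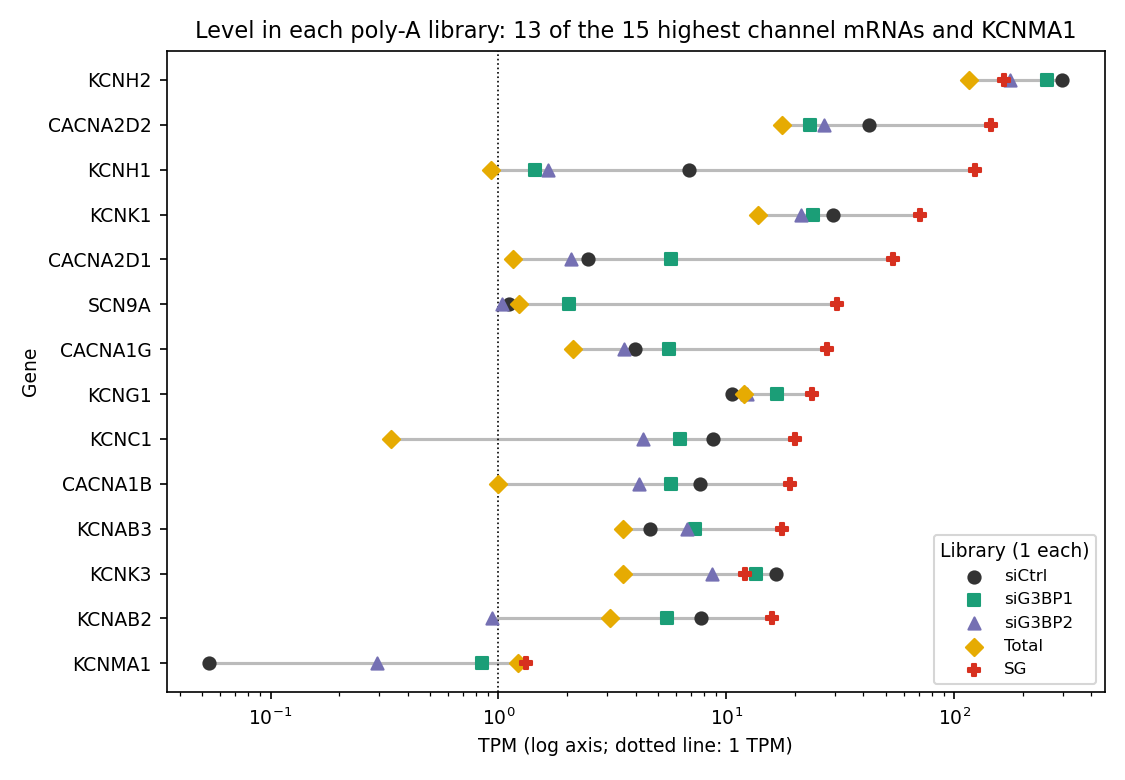
Each row is 1 of 13 of the 15 channel mRNAs with the highest TPM in any poly-A library, or KCNMA1, and each point is the TPM of 1 library on a log axis, with a dotted line at 1 TPM. SG is the rightmost point for all of the 13 but KCNH2 and KCNK3. Because the highest TPM could be that of SG, the choice of rows favours genes high in SG.

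SG was compared with Total in the 58 channel genes that reached 1 TPM in either library. Of these, 36 were under 1 TPM in Total and entered through SG, so that SG above Total was fixed for them by the choice. The other 22 were at 1 TPM or more in Total, and all 22 had a higher value in SG, as had 75.6% of all genes at 1 TPM or more in Total. By the fold of TPM + 1, with SG-enriched meaning a fold above 2 and SG above 1 TPM and SG-depleted a fold below 0.5 and Total above 1 TPM, 45 of the 58 were SG-enriched, 0 were SG-depleted and 13 were Neither. The enriched share was 77.6%, where 62.9% of all 13560 genes so classified were SG-enriched, 9.45% SG-depleted and 27.7% Neither. No test was possible with 1 library on each side.

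The SG-enriched share went with transcript length. Among genes whose longest annotated transcript was 6000 nt or more, 22 of 26 channel genes were SG-enriched (84.6%), against 91.1% of all genes of that length. Between 3000 and 6000 nt the figures were 18 of 23 (78.3%) and 74.7%, and under 3000 nt 5 of 9 (55.6%) and 32.5%. The SG-enriched channel genes had a median longest transcript of 5979 nt and the Neither genes one of 3722 nt. Under 1 TPM in Total, 31 of 36 channel genes were SG-enriched (86.1%, against 90.4% of all genes), and at 1 TPM or more 14 of 22 were (63.6%, against 56.7%). When SG was divided by the all-gene median ratio of 2.78, 50 of the 58 genes were above Total and 8 were below. Since 36 of the 58 had entered through SG, the 50 rests in part on that choice. Its share over all genes was not computed. Of the 43 that then reached 1 TPM in either, 21 were SG-enriched (48.8%, against 35.3% of all genes) and 1 was SG-depleted, where 25.6% of all genes were.

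The largest fold belonged to KCNH1, a voltage-gated ether-a-go-go channel, with 0.924 TPM in Total against 124 TPM in SG, a log2 fold of TPM + 1 of 6.02. CACNA2D1, the alpha2delta subunit that binds gabapentin, came next with 1.15 and 54.2 TPM and a log2 fold of 4.68. KCNC1, a fast delayed rectifier of rapidly firing neurons, had 0.337 and 20.03 TPM (3.98), SCN9A 1.23 and 30.7 TPM (3.83), and CACNA1B 0.994 and 19.0 TPM (3.32). The 6 detected sodium channel genes and the 6 detected Kv1 to Kv4 genes were in the class SG-enriched, but 4 and 5 of them were under 1 TPM in Total and so had entered through SG. Over all members of the families, the summed levels went from 3.31 to 76.7 TPM and from 2.701 to 58.1 TPM. In both families the summed level in SG was also above that in siCtrl, which was 7.01 and 19.8 TPM. Only the KCNH and KCNQ families went the other way, with 317 and 80.0 TPM in siCtrl against 310 and 72.6 TPM in SG. Over all genes the sum was 646450 TPM in siCtrl and 735927 TPM in SG.

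At the other end stood KCNMA1, with a log2 fold of 0.07. KCNQ1, which forms a slow delayed rectifier current with KCNE1, had 5.63 TPM in Total against 6.97 TPM in SG (0.26), and KCNH2 had a log2 fold of 0.52. KCNE5, a small auxiliary subunit encoded by a transcript of 1473 nt, had 0.2296 and 1.01 TPM (0.71). The most abundant channel mRNA in Total, KCNH2, was thus among the 5 smallest folds and in the class Neither. KCNMA1 is not short, with a longest transcript of 12071 nt. KCNQ3, an M-channel subunit, was SG-enriched, at 0.0178 TPM in Total against 8.44 TPM in SG.

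**Figure D3:**
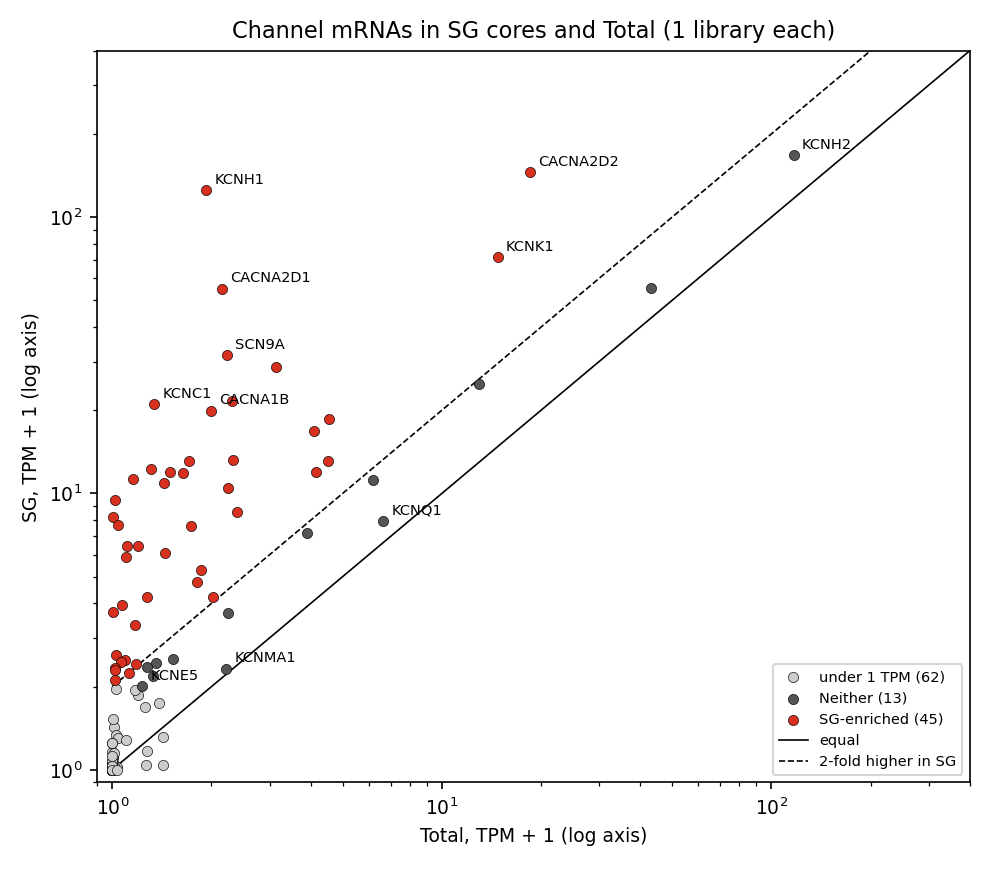
Each point is one of the 120 channel genes, with TPM + 1 in Total on the horizontal and in SG on the vertical log axis, coloured by class, with lines at equality and at 2-fold. The 45 SG-enriched genes, 31 of them under 1 TPM in Total, lie above the 2-fold line, while KCNH2, KCNQ1 and KCNMA1 lie between both lines.

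Genes that work with these channels but fall outside the name rule were read the same way, from a list of 36 partners. Of these, 26 were detected, 22 were SG-enriched, 0 were SG-depleted and 3 were Neither. Among all genes 68.6% were detected, and of those classified 62.9% were SG-enriched, 9.45% SG-depleted and 27.7% Neither. Only 10 of the 36 were at 1 TPM or more in Total, so most had entered through SG. Of all genes that entered in that way, 90.4% were SG-enriched. CACNG4, a transmembrane AMPA receptor regulatory protein of the calcium channel gamma family, was the highest, with 335 TPM in siCtrl, 139 TPM in Total and 591 TPM in SG. REST, the repressor that silences many neuronal channel genes outside neurons, had 2.25 TPM in siCtrl, 0.632 TPM in Total and 115 TPM in SG. DPP6, an auxiliary subunit of Kv4 channels, had 0.162 TPM in Total against 24.9 TPM in SG. KCND2 and KCND3, which encode Kv4 pores, were listed at 0. In the untreated and AS rRNA-depleted libraries, KCND3 had 11 and 14 reads on its best covered transcript. KCND1, another Kv4 pore gene, had 27 and 42 reads there on its own.

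Total, the cleared lysate of AS-treated cells, was also set against siCtrl. These libraries differ in siRNA, in how the RNA was prepared and, by the study's methods, in AS treatment, and these cannot be told apart. Of the 36 channel genes above 1 TPM in either, 23 were below 0.5 times siCtrl in Total (63.9%, against 27.2% of all genes) and 1 was above 2 times (2.78%, against 2.37%). The median ratio of the 21 above 1 TPM in both was 0.468, and 0.750 over all genes. The lower ones included KCNT1, a sodium-activated potassium channel, with 6.88 TPM in siCtrl and 0.169 TPM in Total. The single higher one was KCNMA1. The SG to Total folds above are therefore folds against a library in which many channel mRNAs were low. For KCNT1 the SG value of 2.35 TPM was SG-enriched against Total and yet below siCtrl.

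Each knockdown was set against the same siCtrl library, so the results of both share their control and cannot be read as independent. A gene was called when its TPM ratio was above 2 or below 0.5 and the higher library was above 1 TPM. In siG3BP1, 2 of 36 channel genes were higher (5.56%, against 2.53% of all genes) and 4 were lower (11.1%, against 3.69%). In siG3BP2, 0 of 36 were higher (2.43% of all genes) and 8 were lower (22.2%, against 5.62%). The median ratio was 0.920 in siG3BP1 and 0.778 in siG3BP2, against 0.941 and 0.919 over all genes. There was no test, and at these levels the folds depend on the rule: with 1 TPM added to both values, 2 of the 6 calls in siG3BP1 and 4 of the 8 in siG3BP2 were left.

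KCNH1 had 6.85 TPM in siCtrl, 1.44 TPM in siG3BP1 and 1.65 TPM in siG3BP2. KCNT1 had 6.88, 1.25 and 1.27 TPM in the same order. KCNIP2, a calcium-binding partner of Kv4 channels, had 1.72, 0.536 and 0.365 TPM, and CACNA1C, the L-type calcium channel of heart and neurons, 1.08, 0.414 and 0.491 TPM. These 4 genes were called lower in both knockdowns, each against the one siCtrl value. KCNIP2 and CACNA1C were called in neither knockdown once 1 TPM was added to both values.

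Genes called lower in siG3BP2 alone included KCNAB2, a beta subunit of Kv1 channels, with 7.71 TPM in siCtrl, 5.48 TPM in siG3BP1 and 0.938 TPM in siG3BP2. They also included KCNH4, an ether-a-go-go-like channel, with 4.26, 2.46 and 1.72 TPM, and KCNC1 with 8.71, 6.29 and 4.30 TPM. In these 3 the siG3BP1 value lay between the other two libraries. Called higher in siG3BP1 were CACNA2D1, with 2.47, 5.70 and 2.09 TPM, and SCN3A, a sodium channel of developing neurons, with 1.17, 2.78 and 1.09 TPM. Neither was called with 1 TPM added to both values. No channel gene was called higher in siG3BP2, where the largest folds of TPM + 1 were those of KCNC4, KCNAB3 and KCNJ14, at log2 values of 0.48, 0.45 and 0.32. Of genes not called in siG3BP1, CACNA2D2 had a log2 fold of -0.83 and KCNG1, a modulatory subunit with no current of its own, one of 0.62. KCNH2, at 298, 256 and 177 TPM, passed neither threshold.

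**Figure D4:**
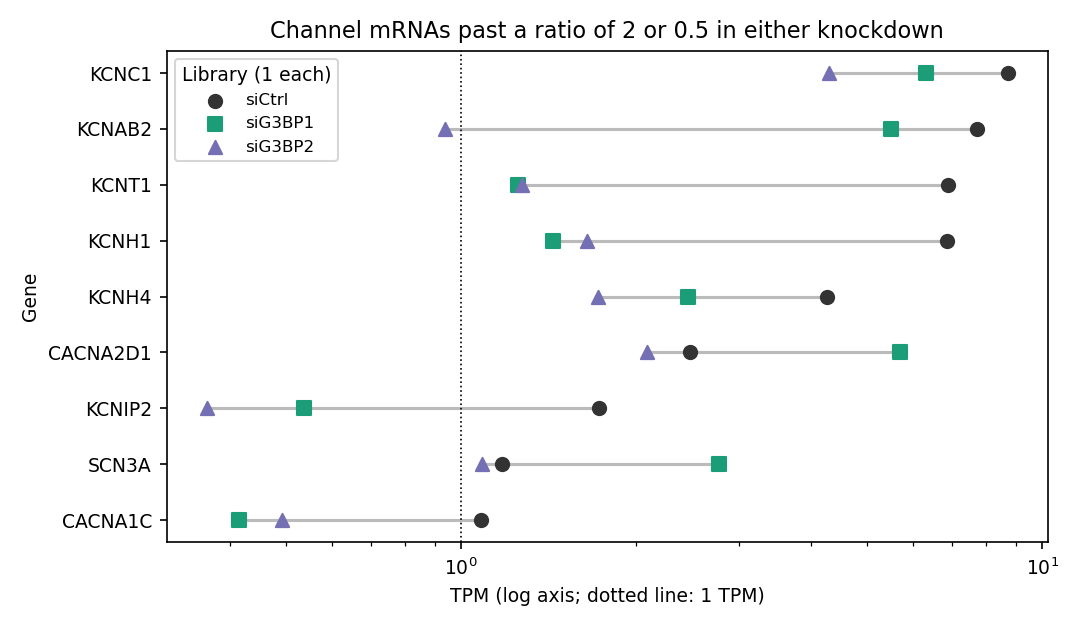
Each row is 1 of 9 channel mRNAs past a TPM ratio of 2 or 0.5 in either knockdown, and each point is the TPM of siCtrl, siG3BP1 or siG3BP2 on a log axis, with a dotted line at 1 TPM. Only CACNA2D1 and SCN3A have siG3BP1 to the right of siCtrl, and KCNAB2 has the longest line.

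The rRNA-depleted libraries, given per transcript, showed few channel transcripts past a 2-fold difference after AS. Their values behave as RPKM in which a read counts for every isoform it overlaps, and the gene values used here are sums over isoforms that count such reads several times. Of 1103 channel transcripts found, 198 were above 1 RPKM in either library and 357 were 0 in both. AS was more than 2-fold above untreated in 3 of the 198 (1.52%, against 6.86% of all transcripts) and below 0.5 in 1 (0.505%, against 2.02%). For summed genes, 7 of 55 were higher (12.7%, against 7.66%) and 0 were lower (1.41% of all genes). The median AS to untreated ratio was 1.20 for the channel genes and 1.22 for all genes, so a ratio near 1.2 was the general level.

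Steps in the values correspond to 13291959 reads in the untreated and 11281587 reads in the AS library, from which the reads of each transcript, and a 95% exact binomial interval of the ratio that covers counting error only, were recovered. KCNA3, the Kv1.3 channel known from lymphocytes, had 16 reads on its transcript KCNA3-201 in untreated and 52 in AS cells, that is 0.486 and 1.86 RPKM and a ratio of 3.83 (interval 2.15 to 7.19). KCNJ8-202, a short transcript of a KATP channel pore, had 1 and 10 reads and a ratio of 11.8 with an interval of 1.68 to 511, and the full-length KCNJ8-201 had 77 and 96 reads and a ratio of 1.47 (1.08 to 2.01). SCN8A-210, a retained-intron transcript of the Nav1.6 gene, had 14 and 2 reads and a ratio of 0.168 (0.0186 to 0.733). Of the 5 transcripts with the largest increases, KCNT2-203 went from 80 to 132 reads (1.94), CACNA2D1-209 from 56 to 79 (1.66) and SCN9A-207 from 4 to 9 (2.65). Each of these counts comes from 1 library.

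For CACNA1C the summed value went from 3.02 to 10.0 RPKM, while its best covered transcript had 11 and 21 reads and a ratio of 2.25 (1.04 to 5.17). For KCNMA1 the sum went from 28.1 to 57.9 RPKM, which passed the 2-fold threshold, but its best covered transcript had 56 and 59 reads and a ratio of 1.24 (0.846 to 1.82), and none of its transcripts was called. KCNK7, KCNJ11, KCNC4 and KCNJ3 were also called higher as sums, with 3, 12, 28 and 29 reads on their best covered transcripts in AS cells. The smallest folds of the sum were those of KCNAB1, KCNIP2, KCNJ13, KCNK4 and CACNA1D, with ratios of 0.609, 0.716, 0.754, 0.670 and 0.790.

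Detection in these libraries mostly followed the poly-A libraries. Over the 120 genes, the RPKM of the canonical transcript in untreated cells and the TPM in siCtrl had a Spearman correlation of 0.764, a description across genes from 1 library each. Of the 16 genes listed at 0 in the poly-A libraries, 12 had no read on any length-matched transcript in either rRNA-depleted library. KCNJ13, an inward rectifier of transporting epithelia, was listed at 0 in all 5 and yet had 52 and 34 reads on KCNJ13-201, but it lies whole within GIGYF2 on the other strand (GRCh38 chromosome 2, positions 232765802 to 232776565), and the strand setting of the counting is not given in the sources used here. KCNAB1, a Kv1 beta subunit with at most 0.0441 TPM in the poly-A libraries, had 85 and 49 reads on its best covered transcript, a ratio of 0.679 (0.468 to 0.977). In all, 35 of the 120 genes overlap another coding gene, 8 of them on the same strand, and reads cannot be assigned to 1 gene there with certainty. The 8 include KCNH1, which had the largest SG to Total fold, and KCNAB3, KCNE5, KCNJ10 and KCNJ14.

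The eCLIP values went with gene span more closely than with mRNA level. Each deposited value is log10 of a number plus 1, unscaled between libraries, and 112 to 120 of the 120 channel genes were above 0 in a library. Across the 120 genes the value correlated with the log10 summed genomic span of all annotated transcripts, introns included, at a Pearson r of 0.912 to 0.957 over the 8 libraries. The correlation with the log10 gene span was 0.876 to 0.911, and that with log10 of the highest TPM + 1 was 0.158 to 0.209. All points of a library share its depth, and the correlations are descriptions.

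KCNMA1 (ENSG00000156113, GRCh38 chromosome 10, 76869601 to 77638369, minus strand) stood apart by the size of its value. The log10 values were 5.28 and 4.70 for G3BP1 in untreated cells, 5.26 and 4.52 for G3BP1 after AS, 5.33 and 4.93 for G3BP2 in untreated cells, and 5.34 and 4.80 for G3BP2 after AS. It ranked 1 or 2 among all genes in every library and held 32.9% to 35.1% of the summed number of the channel genes. Scaled to the library total, it had 7944 and 7381 per 1000000 for untreated G3BP1, 8024 and 7757 for AS G3BP1, 8166 and 7971 for untreated G3BP2, and 8393 and 8232 for AS G3BP2. The untreated and AS ranges overlapped for G3BP1 but not for G3BP2. Yet this gene had at most 1.32 TPM.

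Dividing by length changed its place. Per kb of gene span, KCNMA1 had a number of 174 (the median of 8 libraries), and the median channel gene 7.70. GENCODE release 44 lists 96 transcripts for KCNMA1, with a summed span of 51433 kb, and per kb of that summed span it had 2.60, where the median channel gene had 2.53 and the median of all genes was 2.21. The 2 next highest per kb of gene span, CACNA1G at 119 and KCNAB2 at 77.0, have 34 and 48 annotated transcripts and had 3.80 and 2.78 per kb of summed span. Over the 120 genes the largest value was 22.6 times the median on the first scale and 2.58 times on the second.

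After KCNMA1 the highest mean log10 values were 4.21 for KCNH1, 4.17 for CACNA2D3 and 4.06 for CACNA1A, followed by KCNQ5, KCNIP4, CACNA1E, KCNAB1, KCNT2 and CACNA1D, the last at 3.80. CACNA2D3, an alpha2delta subunit, CACNA1A, the P/Q-type subunit of central synapses, and KCNIP4, a Kv4 partner, had at most 0.0159 TPM in any poly-A library, whereas KCNH1 reached 124 TPM. KCNH2, the most abundant channel mRNA, had a mean log10 value of 2.41 and ranked 7653 among all genes. Its gene spans 33.4 kb, against 457 kb for KCNH1.

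Some detected genes had far fewer than their span would give. CACNA1C, with a gene span of 727 kb and 51 transcripts, had 0.0411 per kb of summed span, the lowest of the 120. KCNA3, with 11.2 TPM in SG, had log10 values between 0 and 1.28 and 0.0878 per kb of summed span. KCNE5 had values of 0.60 to 1.00 in the replicate 1 libraries and 0 in all 4 replicate 2 libraries. CACNA2D4, an undetected alpha2delta gene, was listed at 0 in replicate 2 of both untreated groups and at 1.36 and 1.59 in replicate 2 after AS. The spans come from a later annotation release than the one the authors used, and the part of that difference in these low values was not tested.

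**Figure D5:**
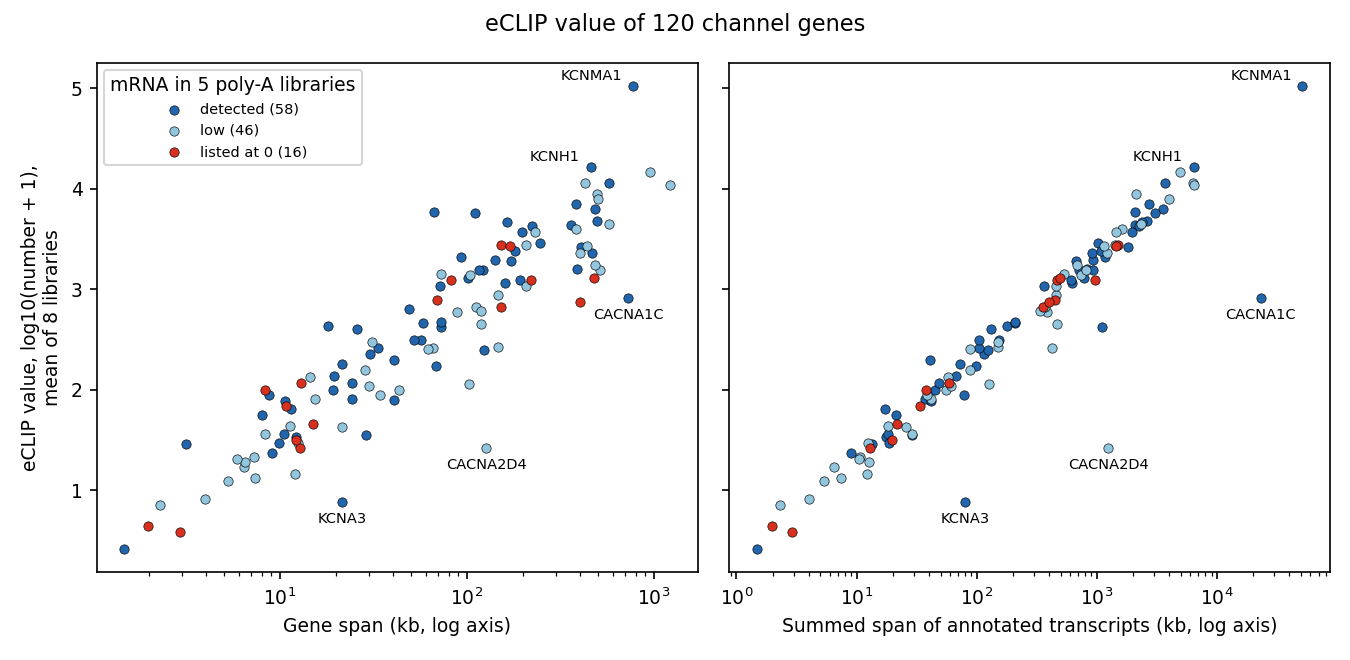
Each point is one of the 120 channel genes, the vertical axis is the eCLIP value as log10 of the number plus 1 (mean of 8 libraries), and the horizontal log axes are gene span (left) and summed span of annotated transcripts (right) in kb, coloured by detection of the mRNA. The genes listed at 0 lie within the same band as the detected genes, KCNMA1 is the highest point in both panels, and CACNA1C, CACNA2D4 and KCNA3 lie below the band on the right.

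Genes listed at 0 had eCLIP values too. Of these 16 genes, 14 were above 0 in all 8 libraries. The highest were KCNJ15, an inward rectifier, at a mean log10 value of 3.44, KCNC2, a fast delayed rectifier, at 3.43, KCND2 at 3.12, KCNJ16 at 3.09 and KCND3 at 3.09. Per kb of gene span, the median of the 58 detected genes was 1.39 to 1.94 times that of the 16 listed at 0 over the 8 libraries, and 2.05 to 2.96 times among all genes. Per kb of summed span it was 0.976 to 1.14 times, and 0.9001 to 1.29 times among all genes. With that denominator the channel genes whose mRNA was detected and those listed at 0 had nearly equal medians. The SMInput libraries, which measure the background of the method, were not analysed here.

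No channel gene passed the test of a difference in eCLIP value between AS-treated and untreated cells, or between the proteins, by limma on log2 of the number per 1000000 plus 0.5 with Benjamini-Hochberg adjustment over 19259 genes. For G3BP1, 0 of 120 channel genes passed an adjusted p of 0.05 (0% of all genes) and 0 an unadjusted p of 0.05. The counts were also 0 and 0 of 120 for G3BP2, for the difference between both changes, and for G3BP2 against G3BP1 over all 8 libraries (0% of all genes each). Over all genes, 831, 555, 172 and 245 had an unadjusted p under 0.05 in these 4 comparisons. Median log2 changes of the 120 were -0.02, 0.01, 0.02 and 0.09, against -0.01, -0.01, 0.00 and 0.02 for all genes.

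KCNMA1 changed after AS by a log2 value of 0.04 for each protein (SE 0.0549, limma adjusted p = 0.971 for G3BP1 and 0.998 for G3BP2), with a 95% interval of -0.09 to 0.17 in both. The smallest unadjusted p for G3BP1 was that of KCNJ10, a glial inward rectifier, with a log2 change of -0.40 (interval -0.82 to 0.01, limma adjusted p = 0.965), and for G3BP2 that of KCNN1, a small-conductance calcium-activated channel, with -0.47 (-0.95 to 0.02, limma adjusted p = 0.998). KCNN1 had 61.9 and 55.1 per 1000000 in untreated and 39.2 and 45.1 in AS libraries of G3BP2, so that its groups did not overlap. Such separation was common: the AS libraries of G3BP1 lay both above the untreated ones for 16 of the 120 genes (13.3%, against 12.6% of all genes) and both below for 19 (15.8%, against 13.7%). For G3BP2 the counts were 18 above (15%, against 14.1%) and 18 below (15%, against 14.9%). Between the proteins, 86 of the 120 channel genes had the higher mean for G3BP2, where 53.8% of all genes had, and the median log2 difference of the 120 was 0.09. It was 0.04 without AS G3BP1 replicate 2 and 0.06 without untreated G3BP1 replicate 2. Intervals of single genes were often wide, as for KCNA3 after AS with G3BP1, at -0.86 (-1.76 to 0.05), and do not show that both conditions are alike.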

How the data were processed

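The authors aligned reads to GRCh38.p13 (HISAT2 2.1.0 per the labels) and deposited StringTie TPM per gene for the 5 poly-A libraries, which sum to 623955 to 735927 over protein-coding genes and keep no depth. For eCLIP the authors deposited log10 of a number plus 1 per gene and library, under headings that say peaks. As a number it sums to 4268657 to 26179732 per library. What the number counts, and which of their steps (fastp, STAR, CLIPper, normalization to SMInput) it includes, is not stated. The rRNA-depleted table is headed TPM, but its deposited values were read as RPKM: value times length was a whole multiple, within 0.01, of one step in 100% of untreated and 99.9993% of AS values above 0. Transcript IDs matched GENCODE 44 in 91.1%.

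Spans, names and isoforms came from GENCODE 44. Libraries in groups of 2 were compared with limma 3.58.1 (R 4.3.3, intensity trend, all 8 libraries, genes above 0 in at least 2), which together with the class and ratio rules was tested on simulated data. Single libraries were classified by fold. Tables and figures used matplotlib 3.10.9, scipy 1.17.1, pandas 2.3.3 and numpy 2.4.6 under Python 3.11.15. The members and lists were chosen with earlier results of these data known.

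Named genes are KCNMA1, the 15 highest TPM, per comparison those called and the largest and smallest folds, the highest and lowest eCLIP values (also per kb), and the 5 genes listed at 0 with the highest eCLIP value. KCNK7, KCNJ11, KCNC4, KCNJ3, KCNQ3, CACNA1H, KCND1, KCNT1 in Total, and CACNA1C and CACNA2D4 per kb were named beyond this rule after their values were seen. So were the partners CACNG4, REST and DPP6, and the markers CD68, TWIST1, FN1, COL1A1, COL3A1, COL1A2, PRRX1, SOX10, S100B and TH. Some genes that the rule names are not reported here, but counts and medians include them. Alternatives covered pseudocounts, thresholds, minima, scaling, spans, a replicate block and leaving out each eCLIP library. Only whole-gene values were compared, without positions, single peaks or sequences.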

Additional observations from a re-analysis of the deposited data

Results flagged for a closer look

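CACNA2D1 and SCN3A were called higher in siG3BP1 and lay slightly below siCtrl in siG3BP2. The TPM ratio to siCtrl was 2.30 in siG3BP1 and 0.846 in siG3BP2 for CACNA2D1, and 2.37 and 0.925 for SCN3A. With 1 TPM added to both values, the largest log2 fold of a channel gene in siG3BP1 was 0.947, so neither call was left. With 1 library in each condition the difference between both knockdowns was not tested.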

How the results depend on the processing

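With 1 library per RNA-seq condition, the counts below move with the threshold, and TPM gives no depth. SG-enriched channel genes numbered 45, and 27 with fold thresholds of 4 and 0.25 (39.3% of all genes). There were 21 with SG scaled to the all-gene median (35.3%, with 1 SG-depleted, which moves the split of calls). With a minimum of 5 TPM there were 29 of 35, given without the share over all genes. The knockdown and rRNA-depleted counts that follow are given without the shares over all genes under each setting. They show how the rule moves the counts and do not set channel genes against other genes. Called genes in siG3BP1 numbered 6, and 2 with TPM + 1, 3 above 5 TPM and 25 with no minimum. In siG3BP2 they numbered 8, and 4 with TPM + 1, 4 above 5 TPM and 35 with no minimum, and with the median ratio set to 1, 1 of 8 calls was higher, against 0. For rRNA-depleted transcripts the count of 4 became 2 with values + 1, 0 above 5 and 304 with no minimum, and with the median ratio set to 1 the 6 calls were 3 higher and 3 lower. For summed genes the count of 7 became 2 with values + 1, 2 above 5, 33 with no minimum (20 higher) and 4 with the median ratio set to 1. Detected channel genes numbered 58, and 36 at 5 TPM, given without the share over all genes. They numbered 35 in siCtrl alone (29.2%, against 60.1% of all genes). Without the SG library (chosen after seeing the data) there were 37, and 12464 of all 19942 genes. The eCLIP ratio of detected to listed-at-0 genes was 1.64, and 1.12 per kb of longest transcript, 1.88 for genes detected at 10 TPM and 1.04 per kb of summed transcript span (chosen after seeing the data).

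For eCLIP, 0 channel genes passed the adjusted p under every alternative, each library left out in turn included. Leaving out AS G3BP1 replicate 1 moved the median log2 change of channel genes for G3BP1 to -0.10, against -0.02 over all genes. Leaving out AS G3BP1 replicate 2 moved it to 0.08, against 0.03. Replicate numbers were shared across groups, but deviations of same-numbered libraries correlated at 0.0811 to 0.521, so the numbers were not taken to pair the samples. With the replicate block, 0 channel genes were called in each comparison, and counts at an unadjusted limma p under 0.05 were 1, 0, 0 and 2. Over all 19259 genes there were 621 higher and 603 lower, 450 and 416, 122 and 129, and 210 and 258. With unscaled log10 values and the replicate block (chosen after seeing the data), the channel counts were 1, 1, 0 and 21. All genes then gave 179 higher and 808 lower, 193 and 462, 94 and 80, and 1473 and 32. Unscaled values moved the median change of all genes to -0.38 for G3BP1 and -0.25 for G3BP2. The causes of these shifts were not tested.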

Other observations

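KCNS3, KCNN4, KCNK15 and KCNV2 were among the low channel mRNAs whose value was higher in Total than in SG. KCNS3, a silent subunit that modifies Kv2 channels, had 0.0189 TPM in siCtrl, 0.0217 TPM in siG3BP1, 0.322 TPM in siG3BP2, 0.429 TPM in Total and 0.0450 TPM in SG. KCNN4, the intermediate-conductance calcium-activated channel, had 0.270 TPM in Total against 0.0383 TPM in SG. None reached 1 TPM in any poly-A library, so they entered no class. They were chosen after their values were seen.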
